A study of Drosophila melanogaster with 10 samples.

Results

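The contacts described here joined distant parts of the pericentromeric heterochromatin of chromosome arm 3L in S2 cells, an embryonic Drosophila melanogaster line. They were all pairs of different chr3L bins that both began at or beyond position 22955576 of the dm3 genome and whose starts lay at least 200 kb apart, each pair counted once. This rule gave 9730 bin pairs of the 40796 same-arm pairs in the series, or 23.9%. The pairs used 159 of the 168 bins of the arm, from chr3L:22956370 to 24543557, and spanned 200 to 1580 kb. In 5C, primers that sit on the ends of EcoRI fragments are ligated where crosslinking had brought those fragments together, and the joined primers are sequenced. The deposited value of each 10 kb bin pair was a log2 observed over expected score, so that positive scores mark contacts more frequent than the expectation.

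The HP1a RNAi group (2 libraries) and the Su(var)3-9 RNAi group (2 libraries) came from cells transfected with dsRNA against that protein and kept for 3 days. The mock RNAi group (2 libraries) received dsRNA against GFP, and the WT group (3 libraries) has no RNAi treatment in the labels. All groups share a single cell line. The 5C scores do not show how far either protein was depleted. By the study's read statistics, each of the depleted libraries had fewer reads with the EcoRI site than any control library. Depletion and depth therefore cannot be told apart, and the scores themselves hold no counts.

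Pericentromeric heterochromatin is the compact, repeat-rich chromatin that flanks the centromere. HP1a binds histone H3 methylated at lysine 9 and can bridge nucleosomes, and Su(var)3-9 is a methyltransferase that places this mark. Genes that lie within this chromatin include RpL10, which encodes a protein of the large ribosomal subunit, and AGO3, which encodes an Argonaute protein of the piRNA pathway.

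The chr3L scores rest on 83 forward and 74 reverse primers. The genome-matching part of each is 30 bases long, and all 83 forward primers end, and all 74 reverse primers begin, with their side of the cut EcoRI site. The primers with the lowest and highest number of each kind are shown because they display the ligation junction that every score counts. The capitals mark the bases of the EcoRI site, which face each other when a forward and a reverse primer are joined.
5C_5909_3LE_FOR_3: ttactattggttctaaagtctgtcataGAA
5C_5909_3LE_FOR_542: aggcttgtaccttatcttgcgaagtttGAA
5C_5909_3LE_REV_2: TTCtcccacgggtgcagatggaggcaggcg
5C_5909_3LE_REV_544: TTCaatccaggccatatgcgaccggtaaaa

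A score of exactly 0 was read as missing. Of the 9730 pairs, 9319 had a score in all 8 libraries other than Su(var)3-9 RNAi replicate 2, 90 in some of these 8, and 321 in none of the 9 libraries. Among the 411 pairs without all 8 scores, 405 held one of the last 3 bins, chr3L:24516370-24543557. Su(var)3-9 RNAi replicate 2 stood apart. It lacked a score for 90.5% of all chr3L pairs and had 271 of the 9730 long-range scores, or 2.79%, so its values are given separately. In this library 1300 chr3L pairs had a score in only 1 of the 2 orders of the bins, whereas no other library had such a pair. Many scores were repeated: the 9319 complete pairs held 6242 distinct sets of 8 scores. The scores had been smoothed, but the source of the repeats was not tested. Bin pairs are not independent measurements.

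Long-range scores were mostly below expectation in every library, and both HP1a RNAi libraries had a higher level and a wider range than both mock RNAi libraries. The median score was -0.67 and -0.37 in the HP1a RNAi replicates, -1.30 in Su(var)3-9 RNAi replicate 1, -0.83 and -0.87 in mock RNAi, and -0.54, -0.54 and -0.82 in WT. Both HP1a RNAi libraries lay above both mock RNAi libraries but on either side of the first 2 WT replicates, while the Su(var)3-9 RNAi library was the lowest of all 8. The mean of the medians was -0.52 ± 0.21 in HP1a RNAi (SD, n = 2) and -0.85 ± 0.031 in mock RNAi (SD, n = 2), a difference of 0.33 (two-sided exact permutation test, p = 0.333, the smallest that 2 against 2 allows). Against WT and mock RNAi together, at -0.72 ± 0.17 (SD, n = 5), the HP1a RNAi difference was 0.20 (exact permutation p = 0.286). Mock RNAi and WT, in which neither protein was targeted, differed by -0.22 (exact permutation p = 0.2, the smallest that 2 against 3 allows). Of the 18 such exact tests in this family, all had a Benjamini-Hochberg adjusted p of 0.514 or more.

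The share of long-range pairs above expectation separated HP1a RNAi from the controls more widely. Scores above 0 made up 7.28% and 26.7% of the pairs in the HP1a RNAi replicates, 3.26% in Su(var)3-9 RNAi replicate 1, 0.480% and 0.298% in mock RNAi, and 3.52%, 3.59% and 0.501% in WT. Every HP1a RNAi library was above every WT and mock RNAi library, although the replicates themselves differed more than 3-fold. The means were 17.0% ± 13.8 in HP1a RNAi (SD, n = 2) and 1.68% ± 1.72 in WT and mock RNAi together (SD, n = 5), a difference of 15.3 percentage points (exact permutation p = 0.0952, the smallest that 2 against 5 allows, adjusted p = 0.514). Against mock RNAi alone the difference was 16.6 points (exact permutation p = 0.333, n = 2 each). HP1a RNAi was also above every control library among the chr3L pairs under 200 kb. Their positive shares were 21.9% and 35.0% in HP1a RNAi, 5.20% and 6.79% in mock RNAi, and 13.5%, 17.5% and 10.6% in WT. The separation was thus not particular to the long-range pairs.

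**Figure D1:**
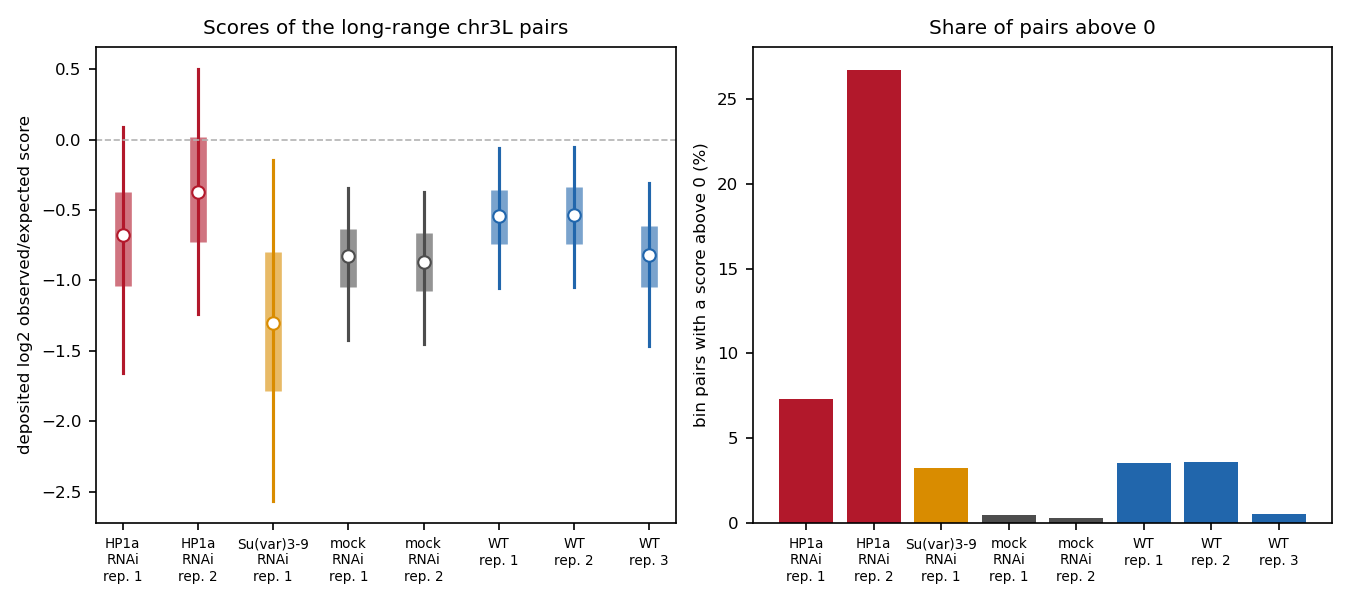
Left, deposited log2 scores of the long-range chr3L pairs in 8 libraries (circle, median; thick bar, middle 50% of pairs; line, 5th to 95th percentile); right, the percent of these pairs with a score above 0. The HP1a RNAi bars reach 7.28% and 26.7%, above all mock RNAi and WT bars, and the depleted libraries have the longest lines.

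Each library's median over all chr3L pairs was also subtracted. This brings the long-range medians of the libraries close together by construction and cannot change the width of a distribution. The centred median was -0.087 and -0.056 in HP1a RNAi, -0.081 in Su(var)3-9 RNAi replicate 1, -0.042 and -0.057 in mock RNAi, and -0.054, -0.075 and -0.062 in WT. The groups overlapped, and HP1a RNAi minus mock RNAi was -0.022 (exact permutation p = 0.667, n = 2 each). HP1a RNAi minus WT and mock RNAi was -0.014 (exact permutation p = 0.381, n = 2 and 5), and mock RNAi minus WT was 0.014 (exact permutation p = 0.4, n = 2 and 3). The arm has 14028 pairs, of which the 9730 long-range pairs are a part, so its median is largely set by them. The tests of the centred medians therefore cannot decide whether the level of the long-range pairs differed between groups.

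The width of the distribution was larger in every depleted library. The standard deviation over pairs was 0.56 and 0.55 in HP1a RNAi, 0.73 in Su(var)3-9 RNAi replicate 1, 0.34 and 0.33 in mock RNAi, and 0.31, 0.31 and 0.37 in WT. The replicates of HP1a RNAi were almost equal and did not overlap any control. The mean was 0.55 ± 0.010 in HP1a RNAi (SD, n = 2) and 0.33 ± 0.024 in WT and mock RNAi (SD, n = 5), a difference of 0.22 (exact permutation p = 0.0952, adjusted p = 0.514). The widening ran both ways. Pairs at least 0.5 above the library's chr3L median made up 9.57% and 15.8% in HP1a RNAi, against 3.59% to 3.64% in mock RNAi and 3.08% to 3.44% in WT. Pairs at least 0.5 below it made up 22.2% and 20.4% in HP1a RNAi, against 8.52% to 9.38% in mock RNAi and 7.18% to 12.3% in WT. In Su(var)3-9 RNAi replicate 1 these shares were 21.4% above and 28.6% below.

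The wider distribution was not limited to long chr3L contacts. Among the 2831 chr3L pairs under 200 kb, the standard deviation was 0.56 and 0.61 in HP1a RNAi, 0.79 in Su(var)3-9 RNAi replicate 1, 0.39 and 0.42 in mock RNAi, and 0.32 to 0.43 in WT. Among the 3081 pairs of 200 kb and over in chr2L heterochromatin it was 0.63 and 0.60 in HP1a RNAi, 0.80 in Su(var)3-9 RNAi replicate 1, 0.36 and 0.34 in mock RNAi, and 0.33 to 0.37 in WT. The chr2L region is shorter and lacks the longest chr3L distances, so the arms were not matched for distance. The chr2L medians were -0.64 and -0.33 in HP1a RNAi, -1.01 and -0.72 in mock RNAi, and -0.57, -0.17 and -0.46 in WT, so HP1a RNAi was above mock RNAi but not above WT. Positive chr2L scores made up 8.47% and 22.8% in HP1a RNAi, 0.474% and 2.11% in mock RNAi, and 2.96%, 26.1% and 6.61% in WT. The chr3L median minus the chr2L median came to -0.029 and -0.047 in the HP1a RNAi libraries, against 0.18 and -0.15 in the mock RNAi libraries. The mock RNAi libraries enclosed the HP1a RNAi values, and the difference between the groups was -0.053 (exact permutation p = 1, n = 2 each). In Su(var)3-9 RNAi replicate 1 the arms differed most, with a chr3L median 0.81 lower than its chr2L median of -0.49.

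Long contacts scored lower than short ones in all 8 libraries. The long-range median minus the median of the pairs under 200 kb was -0.34 and -0.14 in HP1a RNAi, -0.22 in Su(var)3-9 RNAi replicate 1, -0.20 and -0.26 in mock RNAi, and -0.17, -0.21 and -0.24 in WT. The mean was -0.22 ± 0.062 (SD, n = 8; two-sided exact sign permutation test, p = 0.0078, the smallest that 8 libraries allow). All libraries share the primers and the normalisation, so their signs are not independent and the p-value does not cover a bias common to them. HP1a RNAi spanned the lowest and the highest of these values, so the gap did not separate the groups.

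Within the long-range pairs, the score drifted down further with distance, but not evenly. From 200 to 400 kb the median was -0.59 and -0.30 in HP1a RNAi, -1.33 in Su(var)3-9 RNAi replicate 1, -0.80 and -0.85 in mock RNAi, and -0.50, -0.50 and -0.71 in WT. From 600 to 800 kb HP1a RNAi replicate 2 had the same median of -0.30 again, and its share of positive pairs was 32.5%, against 28.7% at 200 to 400 kb. From 1200 to 1580 kb the medians were -1.001 and -0.60 in HP1a RNAi, -1.65 in Su(var)3-9 RNAi replicate 1, -0.95 and -1.03 in mock RNAi, and -0.66, -0.66 and -0.98 in WT, the lowest of the 6 distance classes in each of these libraries. The median of pairs of 1000 kb and over minus that of pairs of 200 to 400 kb was -0.17 and -0.18 in HP1a RNAi, -0.057 in Su(var)3-9 RNAi replicate 1, -0.12 and -0.075 in mock RNAi, and -0.12, -0.14 and -0.19 in WT. It was below 0 in 8 of 8 libraries (exact sign permutation p = 0.0078), again without covering a bias common to all libraries. HP1a RNAi minus WT and mock RNAi was -0.045 (exact permutation p = 0.286, n = 2 and 5), within the range of WT.

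The region was cut into 8 blocks of 200 kb, numbered from the distal start of the region toward the centromere. Block 2, chr3L:23156370-23356370, had the highest long-range scores in 8 of 8 libraries, by 0.10 to 0.35 over the median of all long-range pairs in the same library. Block 8, chr3L:24356370-24543557, was the lowest in 6 of 8 libraries, and block 1 was lowest in WT replicates 2 and 3. The order of the blocks was thus largely shared, and what differed was how far they lay apart. Block 2 stood 0.32 ± 0.052 above the library median in HP1a RNAi (SD, n = 2), 0.32 above in Su(var)3-9 RNAi replicate 1, 0.12 ± 0.023 in mock RNAi (SD, n = 2) and 0.16 ± 0.051 in WT (SD, n = 3). Block 8 stood at -0.35 ± 0.014 in HP1a RNAi, -0.36 in Su(var)3-9 RNAi replicate 1, -0.15 ± 0.049 in mock RNAi and -0.090 ± 0.032 in WT. Contacts of block 2 had positive scores in 14.7% and 48.3% of pairs in HP1a RNAi, 6.12% in Su(var)3-9 RNAi replicate 1, 1.11% and 0.341% in mock RNAi, and 3.58%, 6.94% and 0.937% in WT. The blocks were singled out after their values were seen, so these differences were not tested.

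**Figure D2:**
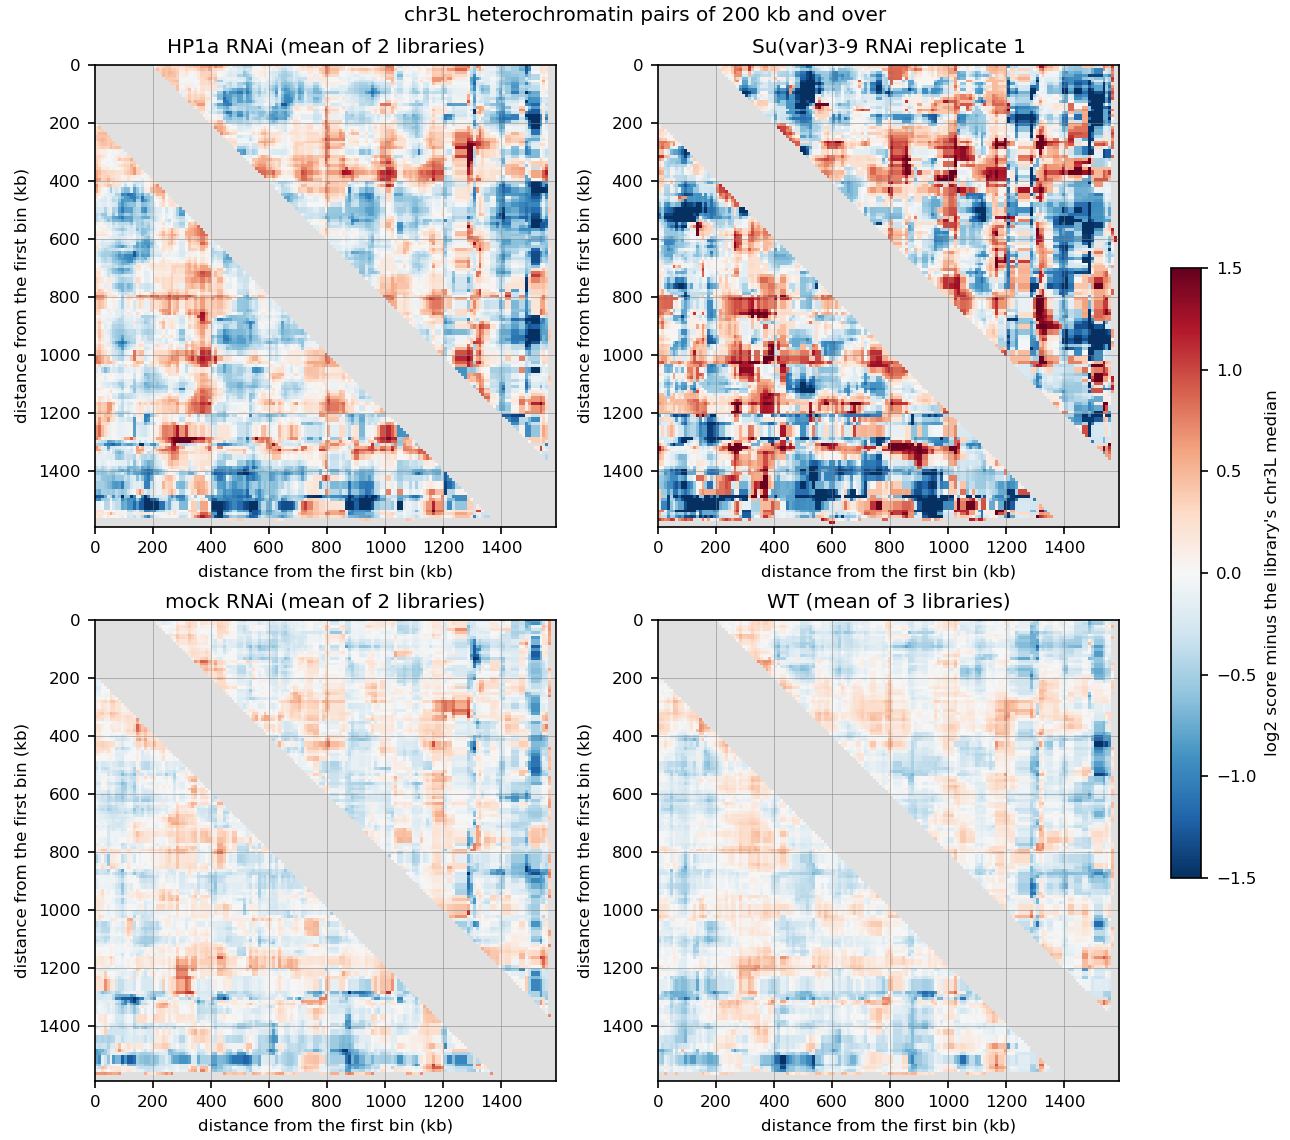
Long-range chr3L scores minus each library's chr3L median, by the position of both bins in kb from the start of the first bin (grey, pairs under 200 kb or with a missing score). Block 2 (200 to 400 kb) is mostly red and chr3L:24436370-24486370 within block 8 mostly blue in all 4 maps. The bin at chr3L:24236370-24246370 in block 7 is higher in HP1a RNAi (means of -0.25 and 0.11) than in any other library. The colours are strongest in the depletions, whose standard deviations are 0.55 to 0.73.

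Bins were compared by the mean score over their long-range pairs, in the 156 bins with at least 20 pairs scored in all 8 libraries. The standard deviation of the bin means was 0.26 and 0.30 in HP1a RNAi, 0.34 in Su(var)3-9 RNAi replicate 1, 0.14 and 0.15 in mock RNAi, and 0.14, 0.16 and 0.16 in WT. Across these bins, Pearson's r of the profiles was 0.82 for HP1a RNAi with Su(var)3-9 RNAi replicate 1, 0.71 for HP1a RNAi with WT, 0.60 for HP1a RNAi with mock RNAi and 0.85 for mock RNAi with WT. All libraries share the primers, the smoothing and the normalisation, and bins are not independent, so these values are descriptive.

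The bin with the highest mean in HP1a RNAi was chr3L:23316370-23326370, in block 2. It had means of -0.013 and 0.25 in HP1a RNAi, -0.61 in Su(var)3-9 RNAi replicate 1, -0.73 and -0.76 in mock RNAi, and -0.30, -0.29 and -0.75 in WT. HP1a RNAi lay above all other libraries there, and the next bin along was nearly identical. The third highest in HP1a RNAi, chr3L:23746370-23756370, was also the second highest in WT, with -0.38 and 0.33 in HP1a RNAi and -0.26, -0.14 and -0.66 in WT, so those groups overlapped. The highest bin in Su(var)3-9 RNAi replicate 1, chr3L:23976370-23986370 in block 6, had a mean of -0.40 there and -0.74 and -0.92 in mock RNAi. Mock RNAi had its 3 highest bins at chr3L:24116370-24146370, also in block 6, with -0.52 and -0.54 in the first of them. In WT the highest was chr3L:23276370-23286370 in block 2, with -0.35, -0.14 and -0.57.

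At the low end, chr3L:24436370-24446370 in block 8 was lowest in both depletions. It had means of -1.24 and -1.20 in HP1a RNAi, -2.37 in Su(var)3-9 RNAi replicate 1, -1.08 and -0.97 in mock RNAi, and -0.74, -0.58 and -0.87 in WT. In mock RNAi the lowest bins were the neighbouring chr3L:24456370-24486370, with -1.32 and -1.33 in the first of them. The lowest bin in WT was chr3L:23046370-23056370 in block 1, with -0.83, -0.85 and -1.18, and it was among the 3 lowest in Su(var)3-9 RNAi replicate 1 too, at -1.98. The third lowest in WT, chr3L:24236370-24246370 in block 7, averaged -0.069 in HP1a RNAi. Its means were -0.25 and 0.11 in HP1a RNAi, -1.89 in Su(var)3-9 RNAi replicate 1, -0.92 and -1.19 in mock RNAi, and -0.74, -0.88 and -1.18 in WT, without overlap between HP1a RNAi and any other library.

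**Figure D3:**
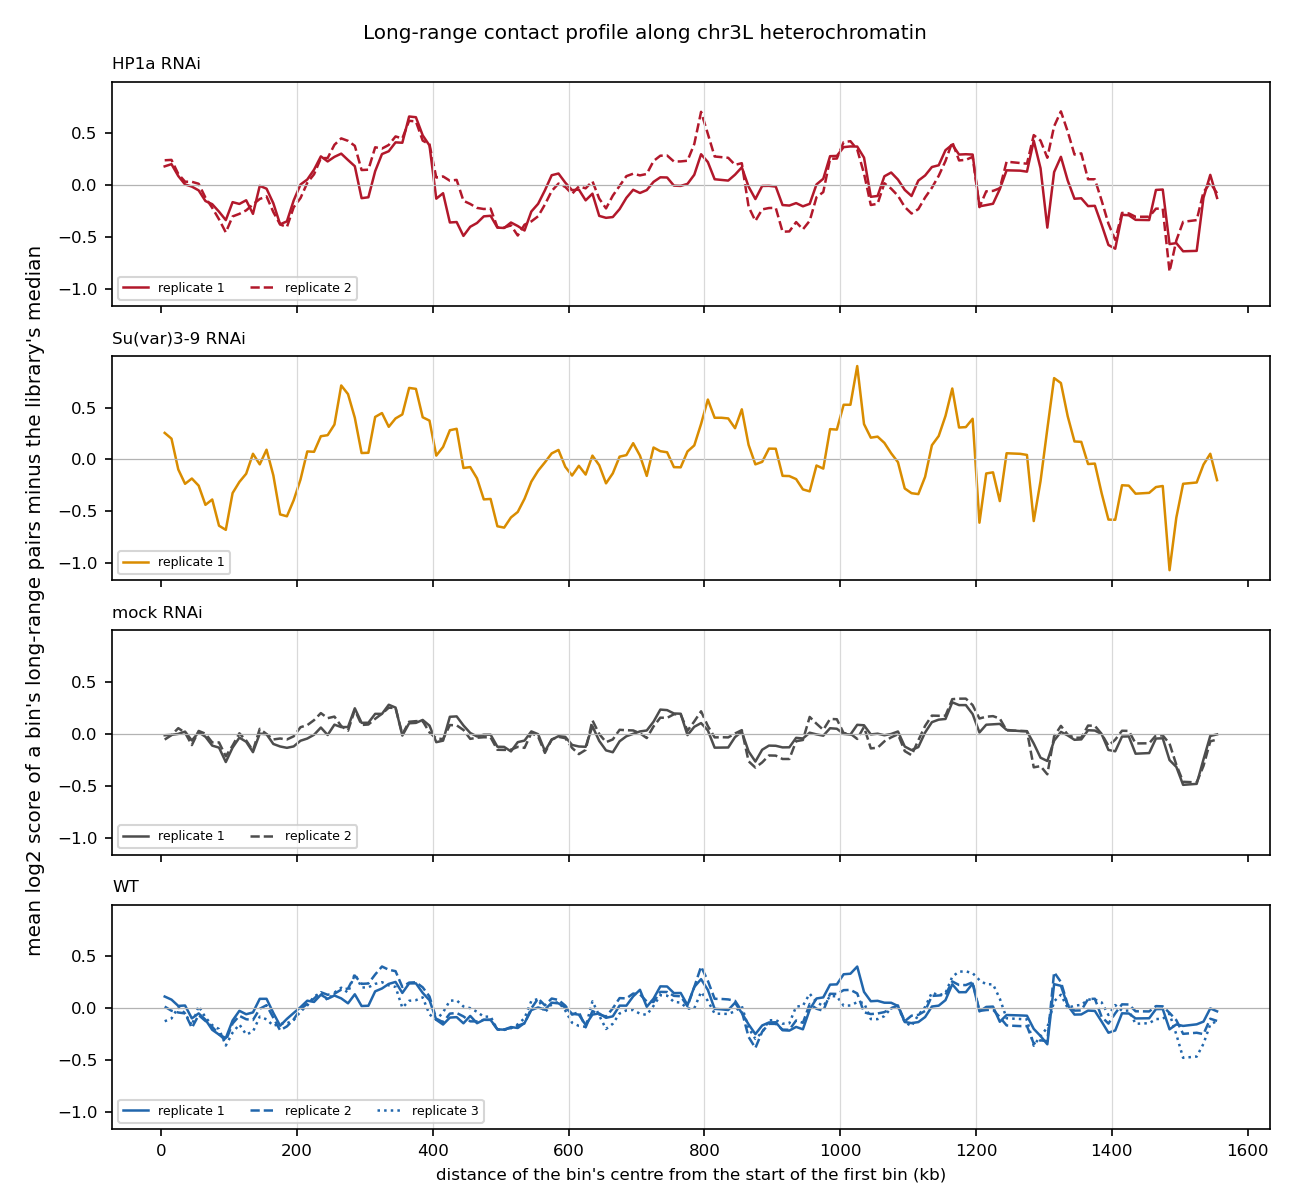
Mean log2 score of each bin's long-range pairs minus the library's long-range median, along the region in kb from the start of the first bin, with 1 line per library. Peaks in blocks 2 and 6 and a trough within block 8 recur in all groups. The swings are widest in the depleted libraries, where bin means vary by an SD of 0.26 to 0.34.

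RpL10, AGO3 and CG17698 served as landmarks. They came from the study's list of genes differentially expressed on knockdown of the histone methyltransferase dMES-4, and other genes of the region were not examined. Pairs of the RpL10 bins, chr3L:23076370-23096370 in block 1, had medians of -0.86 and -0.59 in HP1a RNAi, -1.34 in Su(var)3-9 RNAi replicate 1, -0.89 and -0.96 in mock RNAi, and -0.59, -0.63 and -1.05 in WT. They lay 0.036 to 0.24 lower than the library's long-range median in 8 of 8 libraries. The 14 AGO3 bins, chr3L:23546370-23686370 across blocks 3 and 4, stayed within 0.071 of the library median in every library. The 2 bins of CG17698, chr3L:23726370-23746370 in block 4, lay above the library median in 7 of 8 libraries, by up to 0.40 in HP1a RNAi replicate 2, and 0.0043 below it in WT replicate 3. The 28 pairs that join RpL10 with AGO3 bins had medians of -0.94 and -0.75 in HP1a RNAi, -1.48 in Su(var)3-9 RNAi replicate 1, -1.03 and -0.86 in mock RNAi, and -0.48, -0.59 and -1.11 in WT, so HP1a RNAi overlapped both controls.

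Between blocks, HP1a RNAi exceeded mock RNAi most for block 2 with blocks 6, 5 and 7, followed by blocks 5 and 6. The medians of both HP1a RNAi libraries lay above both mock RNAi medians in 19 of the 28 block pairs and below them in 0. Over single bin pairs, both HP1a RNAi scores were above both mock RNAi scores in 4746 of 9324 long-range pairs, or 50.9%, against 52.0% of all same-arm pairs, and below both in 646, or 6.93%, against 7.17%. These shares are close to the background of the whole series. The widest difference of block medians was between blocks 2 and 6, with -0.13 ± 0.31 in HP1a RNAi and -0.71 ± 0.073 in mock RNAi (SD, n = 2 each), a difference of 0.58. Block 2 differed by 0.47 to 0.58 with blocks 3 to 8 and by 0.43 with block 1. Away from block 2, blocks 5 and 6 differed by 0.52, blocks 6 and 7 by 0.49 and blocks 5 and 7 by 0.45, whereas block 3 with block 8 differed by -0.22.

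Subtracting the chr3L median, which these pairs largely set, brings the signs close to balance by construction, so the values on that scale describe where along the arm the differences lay. HP1a RNAi then lay above both mock RNAi libraries in 8 of the 28 block pairs, below both in 8 and overlapped them in 12. Over single pairs, 2262 of 9324 were above, or 24.3%, against a background of 25.1%, and 2603 were below, or 27.9%, against 27.7%. Block 2 with block 6 stayed 0.23 higher in HP1a RNAi. Block 3 with block 8 was the lowest, at -0.95 and -0.70 in HP1a RNAi and -0.31 and -0.21 in mock RNAi, a difference of -0.56. The difference for block 1 with block 8 was -0.26, with -0.49 and -0.49 in HP1a RNAi and -0.19 and -0.28 in mock RNAi.

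**Figure D4:**
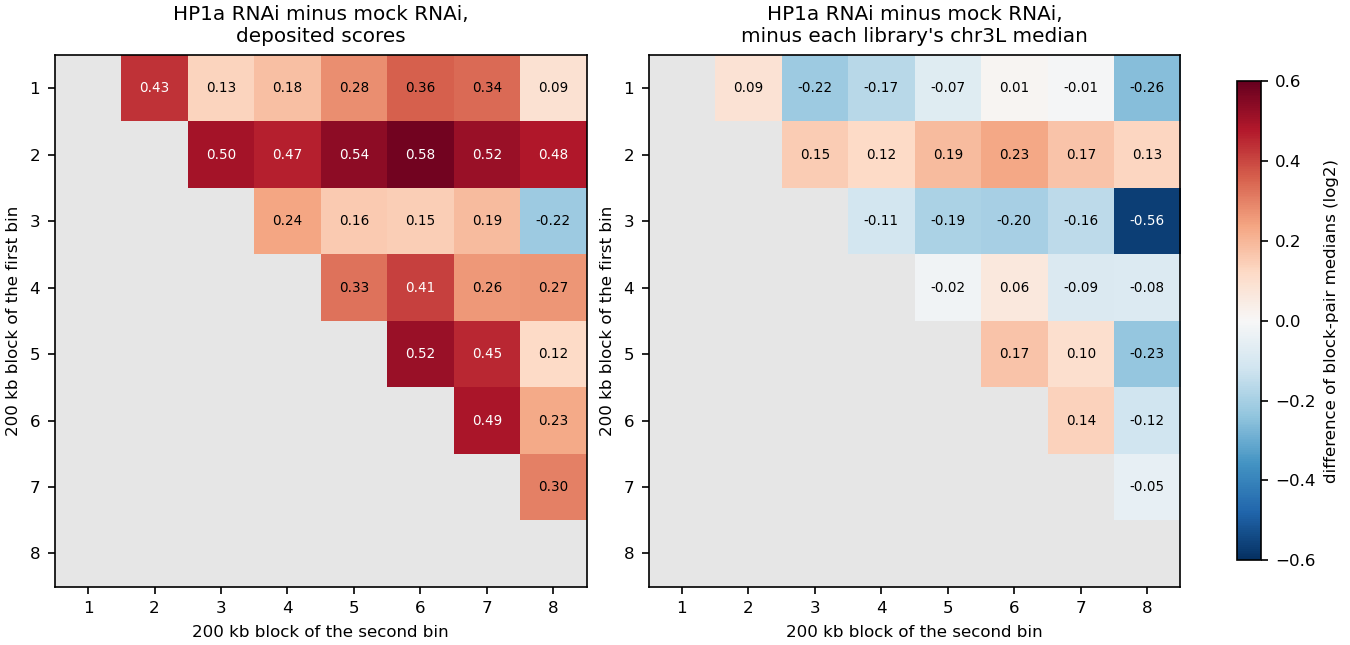
HP1a RNAi minus mock RNAi difference of median log2 score for each pair of 200 kb blocks, from the deposited scores (left) and after subtracting each library's chr3L median (right). On the left, the differences reach 0.58 for blocks 2 and 6; on the right, block 2 stays positive with every later block and block 3 with block 8 is at -0.56.

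For a test of each bin pair, limma was fitted to all same-arm pairs with a score in the 8 libraries and p-values were adjusted over 35210 pairs. HP1a RNAi was higher than mock RNAi in 321 of 9319 long-range pairs, or 3.44%, against 3.96% of all pairs tested, and lower in 4, or 0.0429%, against 0.335%. The median difference of the long-range pairs was 0.33 and that of all pairs 0.34, so the long-range pairs were shifted about as far as the rest of the series. With all 9 libraries in the fit there were 0 calls (1534 higher and 76 lower at an unadjusted p under 0.05 in limma), and blocking on replicate number gave 703, so the adjusted p-values given for single pairs below hold for the fit to 8 libraries. After each arm was centred, 120 long-range pairs were higher, or 1.29%, against a background of 1.38%, and 139 were lower, or 1.49%, against 1.87%. The calls also rested on the mock RNAi libraries: without mock RNAi replicate 1 there was 1 call and without mock RNAi replicate 2 there were 0 (limma, with 977 higher and 46 lower at an unadjusted p under 0.05). There were 33 calls without HP1a RNAi replicate 2, 715 without HP1a RNAi replicate 1, 214 without WT replicate 1 and 547 without WT replicate 3. Mock RNAi against WT gave 0 higher and 0 lower calls, against 0.0% and 0.0% of all pairs, with 4 higher and 405 lower long-range pairs at an unadjusted p under 0.05 in limma.

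The 321 higher pairs were spread unevenly along the arm. They held 211 distinct sets of scores, and their median distance was 610 kb, against 600 kb for all members. Pairs with a bin in block 7 made up 52.3% of them and pairs with a bin in block 2 made up 47.0%. By block, 7.18% of the tested pairs of block 7 were higher, 6.45% of block 2, 5.03% of block 5 and 4.01% of block 6, and 0.897% to 1.99% of blocks 1, 3, 4 and 8. Block 2 with block 7 alone gave 51 of 400 pairs. Among bins, chr3L:24236370-24246370, the low WT bin of block 7 described above, was in 40 of the 321, and the next bin in 39. In 221 of the 321 pairs both HP1a RNAi scores were above 0, in 316 both were above all 3 WT scores, and in 120 the call was also made after arm centring. Su(var)3-9 RNAi replicate 1 was above both mock RNAi libraries in 173 of them. The pairs were called for HP1a RNAi above mock RNAi in the same libraries. High HP1a RNAi and low mock RNAi scores among them therefore follow partly from the selection. These counts were not set against shares over all tested pairs and are descriptive.

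The pair with the smallest p among the higher ones joined chr3L:23246370-23256370 with chr3L:24246370-24256370, blocks 2 and 7, 1000 kb apart. It scored 0.999 and 1.197 in HP1a RNAi, -0.87 in Su(var)3-9 RNAi replicate 1, -0.77 and -0.77 in mock RNAi, and -0.51, -0.40 and -0.42 in WT. Only the HP1a RNAi libraries had a positive score for this contact. The difference from mock RNAi was 1.87 (SE 0.23, limma adjusted p = 0.0106), and it was 1.52 after arm centring (limma adjusted p = 0.0188).

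The second joined chr3L:23096370-23106370 in block 1 with chr3L:24266370-24276370 in block 7. It scored 0.29 and 0.052 in HP1a RNAi, -1.36 in Su(var)3-9 RNAi replicate 1, -2.04 and -1.57 in mock RNAi, and -0.49, -0.50 and -0.83 in WT. Here mock RNAi lay well under WT, and the difference of 1.98 (SE 0.27, limma adjusted p = 0.0106) includes that gap. The third, chr3L:23986370-23996370 with chr3L:24236370-24246370, was 250 kb long and scored 0.81 and 0.61 in HP1a RNAi, -1.87 in Su(var)3-9 RNAi replicate 1, -0.86 and -1.17 in mock RNAi, and -0.36, -0.50 and -0.37 in WT. Su(var)3-9 RNAi replicate 1 was the lowest library there while HP1a RNAi was the highest.

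All 4 lower pairs joined an upstream bin to chr3L:24416370-24446370 in block 8, and they held 3 distinct sets of scores. The pair with the smallest p joined chr3L:23046370-23056370 to chr3L:24436370-24446370, 1390 kb away. It scored -1.94 and -2.30 in HP1a RNAi, -3.64 in Su(var)3-9 RNAi replicate 1, -0.40 and -0.50 in mock RNAi, and -0.40, -0.22 and -0.78 in WT. Both depletions were below every control. The difference from mock RNAi was -1.67 (SE 0.27, limma adjusted p = 0.0185). The same bin of block 8 with chr3L:23906370-23916370 scored -2.21 and -2.23 in HP1a RNAi, -2.92 in Su(var)3-9 RNAi replicate 1, -1.11 and -0.62 in mock RNAi, and -1.17, -0.97 and -0.43 in WT. The third, chr3L:23476370-23486370 with chr3L:24416370-24426370, scored -1.36 and -1.92 in HP1a RNAi, -2.12 in Su(var)3-9 RNAi replicate 1, -0.58 and -0.20 in mock RNAi, and -0.22, 0.086 and -0.36 in WT.

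The long-range pairs with the highest mean score in WT lay in the proximal 3 blocks. The first, chr3L:24116370-24126370 with chr3L:24486370-24496370, 370 kb apart, scored 1.05 and 0.98 in HP1a RNAi, 0.32 in Su(var)3-9 RNAi replicate 1, 0.32 and 0.21 in mock RNAi, and 0.49, 0.31 and 0.33 in WT. It was above expectation in all 8 libraries, and HP1a RNAi was above mock RNAi by 0.75 (SE 0.23, limma adjusted p = 0.0817). The second, chr3L:23976370-23986370 with chr3L:24236370-24246370, scored 0.69 and 0.70 in HP1a RNAi, -0.28 in Su(var)3-9 RNAi replicate 1, -0.16 and -1.15 in mock RNAi, and 0.49, 0.021 and 0.29 in WT. The third, chr3L:24266370-24276370 with chr3L:24486370-24496370, ranged from -0.42 to 1.11 over the WT replicates alone and from 0.023 to 1.07 over the HP1a RNAi replicates.

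Of the pairs with the lowest mean score in WT, the first 2 joined bins of block 3 to chr3L:24456370-24466370 in block 8. The lower of them, chr3L:23376370-23386370 with that bin, scored -3.80 and -0.79 in HP1a RNAi, -1.28 in Su(var)3-9 RNAi replicate 1, -1.54 and -1.39 in mock RNAi, and -1.28, -2.00 and -3.24 in WT. The replicates of one group differed by more than 3 on the log2 scale, and HP1a RNAi was not separated from mock RNAi (difference -0.83, SE 0.79, limma adjusted p = 0.509). The third lowest, chr3L:23046370-23056370 with chr3L:24256370-24266370, scored -1.60 and -0.60 in HP1a RNAi, -1.27 in Su(var)3-9 RNAi replicate 1, -2.08 and -2.01 in mock RNAi, and -2.45, -1.49 and -1.31 in WT.

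**Figure D5:**
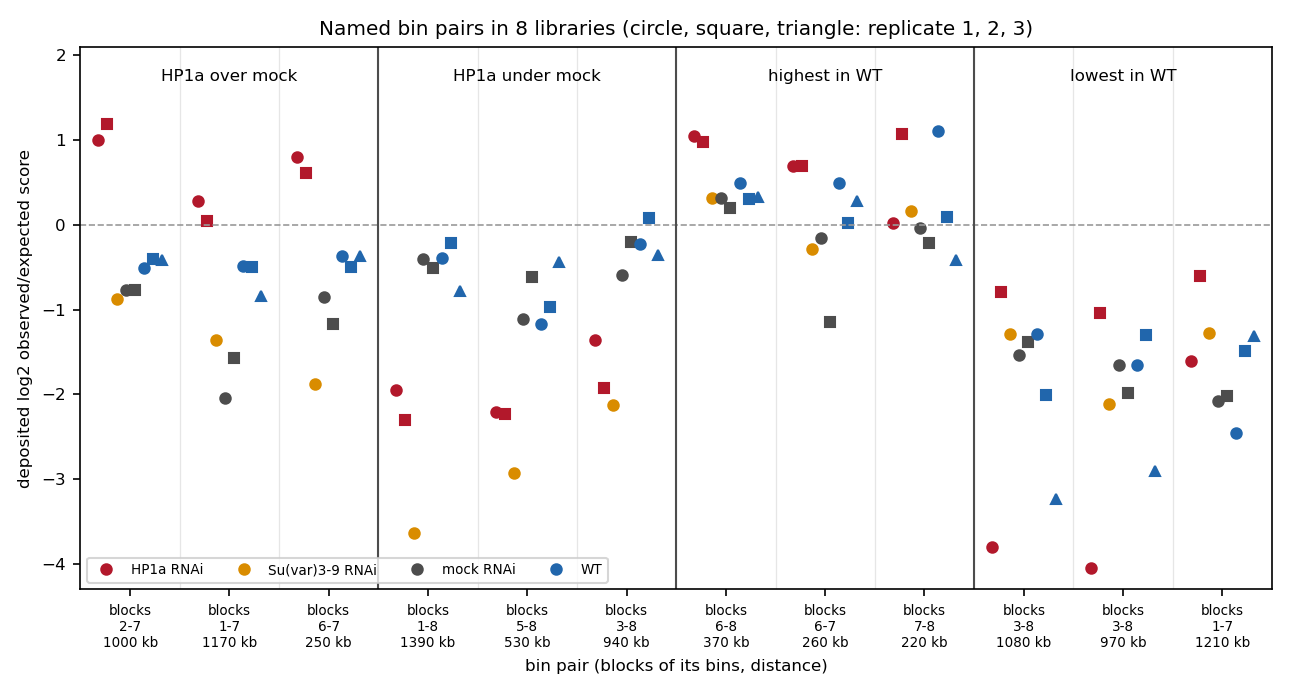
Deposited log2 score of 12 bin pairs in 8 libraries (x axis, the 200 kb blocks of the 2 bins and their distance). The 3 pairs on the left are above 0 only in HP1a RNAi, and the next 3 are lowest in the 2 depletions. In the pairs that are lowest in WT, the HP1a RNAi and WT replicates are far apart and the mock RNAi replicates closer together.

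The pairs above expectation in both replicates of HP1a RNAi numbered 538, against 6 in both replicates of mock RNAi and 12 in all 3 of WT. The WT count required more libraries, and the matching shares over all same-arm pairs were not computed. HP1a RNAi scores were shifted upward across the series, with a median limma difference from mock RNAi of 0.33 in long-range pairs and 0.34 in all pairs. The counts therefore do not single out the long-range chr3L pairs. Of the 538, 297 touched block 2, or 55.2%, whereas 24.7% of all members did. Block 2 had the highest scores in every compared library, so its larger share among pairs chosen for positive scores follows from that choice. Among the 538, 379 had no positive score in any mock RNAi or WT library. Of the 12 WT pairs, 5 were among the 538, which is 41.7% of the WT list and 0.929% of the HP1a RNAi list. Pairs of 200 to 400 kb made up 33.5% of the 538 and 26.6% of all members.

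The pattern of the HP1a RNAi differences from mock RNAi recurred in part between replicates that share no control library. Across the 9319 complete pairs, HP1a RNAi replicate 1 minus mock RNAi replicate 1 and HP1a RNAi replicate 2 minus mock RNAi replicate 2 had a Pearson's r of 0.40, and crossing the mock RNAi libraries gave 0.41. The median difference was 0.15 for the replicates numbered 1 and 0.51 for those numbered 2, so the replicates differed in size by more than 3 times. Between libraries, r of the scores was 0.63 for the HP1a RNAi replicates, 0.65 for the mock RNAi replicates and 0.48 to 0.66 among WT. These are correlations across bin pairs, which share bins and smoothing. A trait common to the mock RNAi libraries would enter both differences, and a like value for mock RNAi against WT was not computed.

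Su(var)3-9 RNAi replicate 1 was lower than mock RNAi in level, by -0.45 in the median, with 1 library and no test. Relative to the mock RNAi mean, 1921 of 9355 long-range pairs were at least 1 lower on the log2 scale, or 20.5%, against 23.2% of all pairs, and 205 were at least 1 higher, or 2.19%, against 4.38%. After the arms were centred, 729 pairs were at least 1 lower, or 7.79%, against 9.26%, and 646 at least 1 higher, or 6.91%, against 8.82%. The median difference was -0.032 on that scale. By block pair after centring, it was most above mock RNAi for blocks 2 and 6, by 0.41, and for blocks 2 and 5, by 0.40. It was most below for blocks 1 and 8, at -0.54, and blocks 3 and 8, at -0.53. These are the ends of the range in HP1a RNAi as well, but both comparisons use the same mock RNAi libraries.

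Su(var)3-9 RNAi replicate 2 scored 271 pairs, which all had their first bin in chr3L:22956370-22976370, the distal edge of the region. Over these same 271 pairs the median was -0.70 in this library and -0.98 in Su(var)3-9 RNAi replicate 1, against -0.83 and -0.91 in mock RNAi and -0.47, -0.53 and -0.91 in WT. The Su(var)3-9 RNAi replicates lay on opposite sides of mock RNAi. In HP1a RNAi the same pairs had medians of -0.39 and -0.088. For this library the distribution of the other long-range pairs was not analysed here.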

How the data were processed

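The authors deposited 1 table per 5C library with a log2 observed over expected score for each bin pair of the same arm. By their methods and processing notes, reads were mapped with Bowtie2 to the primer pairs (dm3), binned at 10 kb (5 kb on chrX) with smoothing by the median, and normalised with my5C against an unprocessed control library, which was not analysed here. The scores are not counts, so the depth behind a value is unknown and no counting interval is given.

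Both orders of a pair were averaged where both had a score, otherwise the single score was kept (1300 chr3L pairs, all in Su(var)3-9 RNAi replicate 2), and 0 was read as missing. Medians, percents and standard deviations were computed per library and compared by two-sided exact permutation tests, which cannot go below p = 0.333 for 2 libraries against 2 or 0.0952 for 2 against 5. The methods call the WT libraries biological replicates and the RNAi experiments duplicates. limma 3.58.1 (R 4.3.3) was fitted without a pseudocount to pairs scored in 8 libraries. Tested on simulated data with 200 changed pairs among 35210, it recovered 0% of changes of 1, 65.5% of changes of 2 and 98.5% of changes of 4 on the log2 scale, with 5.07% and 3.43% false calls at 2 and 4. The simulation drew independent noise for each pair and gave HP1a RNAi no shift outside the changed pairs. The real scores were smoothed and shifted across the series, so these rates do not give the share of false calls in the data. Named pairs were the 3 with the smallest p in each direction without overlap between HP1a RNAi and mock RNAi and the 3 highest and lowest in WT, 50 kb or more apart in a bin; named bins were the 3 highest and lowest by group. The members, blocks and genes were chosen with earlier results of these data known. Alternatives covered missing scores, the mean, a 300 kb minimum, centring, the variance model, the replicate block and each library left out; the standard deviation and the use of each distinct set of scores once were added after seeing the data. Gene positions and primers came from the study's supplementary tables. Python 3.11.15 with numpy 2.4.6 and pandas 2.3.3 was used.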

Additional observations from a re-analysis of the deposited data

Results flagged for a closer look

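Su(var)3-9 RNAi replicate 2 was left out of the comparisons because it has few chr3L scores. Of its 271 long-range pairs, 8.86% had a positive score, against 0% of the same pairs in both mock RNAi libraries and 2.58%, 2.58% and 0% in WT. This share was higher than in each control library, but it rests on 1 library and was not tested. Its median over these pairs, -0.70, lay within the control range of -0.91 to -0.47. Over those pairs Su(var)3-9 RNAi replicate 1 had 0.738% positive scores, and HP1a RNAi had 5.17% and 35.1%. In this library 1300 chr3L pairs had a score in only 1 of the 2 orders. All 271 pairs hold one of the first 2 bins of the region.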

How the results depend on the processing

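Of 160 alternative values, 147 were counted as unchanged. For exact tests this meant the same direction and the same side of 0.05, a side that was fixed for every test between groups. For limma it meant a total of calls of similar size, so the arm-centred fit counted as unchanged although its directions shifted. For Su(var)3-9 RNAi replicate 1 it meant the same direction and a shift smaller than the SD of the mock RNAi medians. The number of long-range pairs called by limma between HP1a RNAi and mock RNAi was the least stable: 325 in all, 703 with the replicate number as a block, 0 with all 9 libraries (1534 higher and 76 lower at an unadjusted p under 0.05), and 0 to 715 when 1 library was left out. Among these, the count was 214 without WT replicate 1, 547 without WT replicate 3, 1 without mock RNAi replicate 1, 0 without mock RNAi replicate 2, 715 without HP1a RNAi replicate 1 and 33 without HP1a RNAi replicate 2. With 1 library left in a group, that library is assumed to vary like the others. Arm centring gave 120 higher and 139 lower calls, against 321 higher and 4 lower. The labels give the replicates only a number. Deviations of HP1a RNAi and mock RNAi libraries with the same number had a correlation of -0.0036 across pairs. A correlation does not see a shift of level, and WT was not included, so this value cannot decide whether libraries with the same number share a batch. The block changed no other direction between HP1a RNAi and mock RNAi. Mock RNAi against WT gave 2 calls with the replicate block and 0 to 6 when 1 library was left out, the 6 without WT replicate 3.

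Values close to 0 changed sign. The centred median of mock RNAi minus WT was -0.00063 with the mean in place of the median. That of HP1a RNAi minus WT and mock RNAi was -0.030 to 0.0023 when 1 library was left out, with 0.0023 without HP1a RNAi replicate 1. The chr3L minus chr2L difference between HP1a RNAi and mock RNAi was -0.22 to 0.11 when 1 library was left out, with 0.11 without mock RNAi replicate 1. The cause was not tested. The level rested on HP1a RNAi replicate 2: HP1a RNAi minus WT and mock RNAi was 0.045 without it and 0.35 without replicate 1, and the percent positive differed by 5.60 and 25.1 points. The difference in standard deviation was 0.21 to 0.23 whichever library was left out. Scores without counts limit every comparison, and with 2 depleted libraries no exact test between groups could pass 0.05.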
